A study of Mus musculus with 4 samples.

Results

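The D-box factors of the circadian clock were examined in mouse soleus, a slow-twitch calf muscle, in the presence and absence of hormone-sensitive lipase (HSL), the enzyme that hydrolyses stored acylglycerols and cholesteryl esters and is encoded by Lipe. The members were the probe sets whose platform annotation gave exactly 1 gene symbol and that symbol was Dbp, Tef, Hlf or Nfil3. Of these 4 genes, 3 had a probe set that met this rule and Hlf had none, which left 4 of the 12488 probe sets on the array: 160841_at for Dbp, 160117_at for Tef, and 102955_at, the brighter, and 101805_f_at, the dimmer, for Nfil3. The groups were wildtype and HSL-null, each 1 pool of soleus from 5 female mice at 6 months of age, and each pool was hybridised to 2 arrays as technical duplicates. The labels give neither the strain, nor the allele behind the null, nor the time of day at which the muscle was taken. A single pool per genotype allows no test across animals, so that no p-value was computed and every error below is the error of the arrays.

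DBP, TEF and HLF are basic leucine zipper transcription factors of the proline- and acidic amino acid-rich (PAR) subfamily, and they activate genes that carry a D-box in their regulatory DNA. NFIL3, also called E4BP4, binds the same element and represses transcription from it. Dbp is driven by CLOCK and BMAL1 through E-boxes and inhibited by the PER and CRY proteins, whereas Nfil3 is repressed by REV-ERB and activated by ROR through a shared response element, so that in many tissues activators and repressor peak at opposite times of day.

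The sequences before the RefSeq starts of these genes (build GRCm38.p6) are shown for the letters of the clock elements found there, and that of Dbp because Dbp was the separated member. RefSeq gave 1 start for Dbp, 2 for Tef, 1 for Hlf and 1 for Nfil3. In the 250 bases before each start, both strands were searched for the E-box CACGTG, the D-box in the forms TTATGTAA and TTACGTAA, the ROR and REV-ERB core AGGTCA, and the same core after a T, TAGGTCA, whose matches are also matches of AGGTCA. The E-box was present before both starts of Tef, 122 to 127 bases before the first and 133 to 138 bases before the second. The core TAGGTCA lay on the opposite strand 6 to 12 bases before the start of Nfil3. The whole windows of Nfil3 and of the second Tef start lie inside the annotated span of the gene. The matches there are therefore not upstream of the gene. In the window of Dbp, 103 of the 250 bases lie before the span. Neither form of the D-box was matched before any of these starts, and none of the searched letters was matched in the windows of Dbp or Hlf. Among 32536 windows of this length with distinct sequence, 6.04% held the E-box, 0.811% and 0.114% the D-box as TTATGTAA and TTACGTAA, 14.0% AGGTCA and 2.24% TAGGTCA. A match describes these letters only, and a window without one says nothing about the factor. The capitals in the sequences mark the E-box in Tef and the core in Nfil3, and bases inside the annotated span of a gene are shown only around a match.
Tef first start, chr15:81802423-81802672, plus strand: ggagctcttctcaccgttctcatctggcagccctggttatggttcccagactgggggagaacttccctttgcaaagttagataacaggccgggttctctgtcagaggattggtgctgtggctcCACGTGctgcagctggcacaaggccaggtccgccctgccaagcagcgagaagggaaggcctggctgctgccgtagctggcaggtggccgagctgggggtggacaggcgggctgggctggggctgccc
Tef second start, chr15:81811264-81811293, plus strand: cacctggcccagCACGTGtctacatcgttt
Nfil3, chr13:52981040-52981063, minus strand: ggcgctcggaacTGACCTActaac
Dbp, chr7:45704997-45705099, plus strand: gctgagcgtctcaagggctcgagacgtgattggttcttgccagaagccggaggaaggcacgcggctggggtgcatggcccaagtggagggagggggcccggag

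The values are linear intensities as deposited, and log2 differences are HSL-null minus wildtype after values below 5.7, the 25th percentile of the table, were set to it. The filter kept probe sets whose mean intensity was at least 27.7, the median of the table, and all 4 member probe sets were among the 6208 that passed. Each HSL-null array was set against each wildtype array, which gave 4 array pairs. A probe set counted as separated if every pair pointed the same way by 1.5-fold or more, and as non-overlapping if every pair pointed the same way by any amount. Of the 6208 probe sets, 0.226% were separated higher and 0.226% separated lower in HSL-null, whereas 19.5% were non-overlapping higher and 21.1% non-overlapping lower, so that non-overlap alone is common on these arrays.

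Lipe, the targeted gene, measured 71.4 and 70.2 in wildtype, against 16.2 and 19.4 in HSL-null, in the direction of the labels. All 8 slow-fibre markers on the array passed the filter and had overlapping summed intensities, 34842 to 36952.8 in wildtype and 36340.3 to 37908.6 in HSL-null, and none was at the floor. Their log2 differences, 0.012 to 0.093, were all above 0, and 3 of the 8 were non-overlapping higher. With quantile normalization 4 were above 0 and 3 below. The sums of 4 other cell type lists did not overlap between genotypes, and those of macrophage and of Schwann cell and nerve markers did. How often the sums of other sets of genes would not overlap was not computed. Over all 6208 probe sets, 49.5% lay above 0. The 9 fast-fibre markers summed to between 16078.5 and 17642.1 in wildtype and between 20574.2 and 20748.9 in HSL-null, with 8 of 9 above 0. Most of that gap came from Myh4, Actn3 and Pvalb: without these 3, left out after their values were seen, the other 6 summed to 15738.4 and 14063.8 in wildtype and to 15481.5 and 15514.4 in HSL-null, which overlap. The 6 fibroblast markers summed to between 3448.2 and 3483 in wildtype and between 3938.6 and 4072.1 in HSL-null, with 6 of 6 above 0. The collagens Col1a1, Col3a1 and Col1a2 stood at 0.48, 0.37 and 0.36, and Dcn, Lum and Pdgfra at 0.079, 0.082 and 0.12. The 6 white adipocyte markers on the array summed to between 600.7 and 609.8 in wildtype and between 414 and 415.7 in HSL-null, with 5 of 5 above the filter below 0. This list holds Lipe itself. Without it, also chosen after the values were seen, the sums were 538.4 and 530.5 in wildtype and 397.8 and 396.3 in HSL-null. Of the markers left above the filter, 4 of 4 were below 0, from -1.06 for Adipoq to -0.10 for Lep, which overlapped. The 6 endothelial markers summed to between 787.4 and 825.6 in wildtype and between 755.8 and 767.1 in HSL-null, with 6 of 6 below 0. Taken singly, 5 of the 6 overlapped between genotypes. With median centring, quantile normalization or cyclic loess, 5 were below 0 and 1 above. None of these markers had a mean at or under the floor. As a sign of RNA quality, beta-actin gave a 3′ to 5′ ratio of 0.697 ± 0.0126 in the wildtype pool and 0.819 ± 0.00532 in the HSL-null pool (SD, n = 2 arrays each). The Gapdh ratio lay the other way, at 0.941 ± 0.0203 and 0.917 ± 0.00716. The part of these differences in the values of the D-box factors was not tested, and in bulk muscle fewer cells of a type and less RNA per cell cannot be told apart.

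Dbp was higher in the HSL-null pool and was the separated member of the family. Dbp, the albumin D-box binding protein and a strongly clock-driven PAR factor in many tissues, measured 62.5 and 66.4 in wildtype, against 110.4 and 100.9 in HSL-null. Both HSL-null arrays lay above both wildtype arrays, with a gap between the groups of 1.52-fold at its narrowest and 1.77-fold at its widest. The pools averaged 64.5 ± 2.76 and 106 ± 6.72 (SD, n = 2 arrays each), a 1.64-fold higher level without HSL, and the log2 difference was 0.71 ± 0.078 (SE of duplicates). The duplicates of Dbp differed by 0.087 in wildtype and 0.13 in HSL-null on the log2 scale, close to the median gap of 0.13 between duplicates among the 500 probe sets nearest in level, of which 95% of gaps were under 0.45. The difference of Dbp was the 27th highest among the 6208 probe sets. The narrowest pair stood just above the 1.5-fold threshold, and with a pseudocount of 10 in place of the floor the difference was 0.63 and Dbp was no longer separated.

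**Figure D1:**
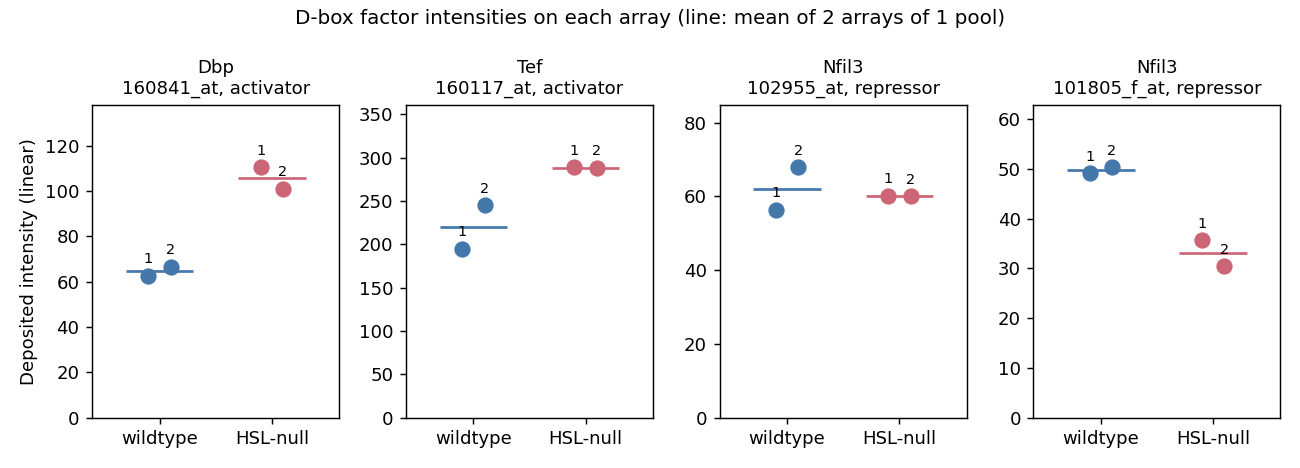
Deposited linear intensity (vertical axis, from 0) of the 4 member probe sets on each array, with wildtype in blue and HSL-null in red. Points are arrays, numbered by duplicate, and lines are means of the 2 arrays of 1 pool; the genotypes do not overlap for Dbp, Tef and the dimmer probe set of Nfil3, and overlap for the brighter probe set of Nfil3.

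Tef, the thyrotroph embryonic factor and the other activator on the array, was higher in the HSL-null pool by an amount that rested on how wildtype was measured. It measured 194.7 and 244.8 in wildtype, against 288.8 and 287.9 in HSL-null. The HSL-null duplicates were nearly equal and lay above both wildtype arrays, but the wildtype duplicates stood 0.330 apart on the log2 scale. Among the 500 probe sets nearest in level, the median gap was 0.076 and 95% of gaps were under 0.327. The wildtype gap of Tef was thus just above that limit. The pools averaged 220 ± 35.4 and 288 ± 0.636 (SD, n = 2 arrays each), a 1.32-fold higher level without HSL, and the log2 difference was 0.40 ± 0.17 (SE of duplicates). Tef ranked 167th highest of 6208 and was not separated, since the fold over wildtype array 2 was 1.18 at its narrowest. Without wildtype array 1 the log2 difference was 0.24, and without wildtype array 2 it was 0.57. Dbp exceeded Tef in log2 difference by 0.31 ± 0.14, with all 4 array pairs on that side.

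The 2 probe sets of Nfil3, the repressor, gave different values. On the brighter probe set, Nfil3 measured 56.3 and 67.9 in wildtype and 60.2 and 60.0 in HSL-null, so that the HSL-null arrays lay between the wildtype arrays. The means were 62.1 ± 8.20 (SD, n = 2 arrays) and 60.1 ± 0.141, with a log2 difference of -0.041 ± 0.14 (SE of duplicates) and 2 of 4 array pairs above 0. The sign of this value turned when wildtype array 2 was left out, at 0.094, and it was -0.18 without wildtype array 1. On the dimmer probe set, Nfil3 measured 49.1 and 50.3 in wildtype and 35.6 and 30.4 in HSL-null, with both HSL-null arrays below both wildtype arrays. The means were 49.7 ± 0.849 and 33.0 ± 3.68, 1.51-fold lower in HSL-null (log2 difference -0.60 ± 0.12), the 48th lowest of 6208. The narrowest pair of this probe set was 1.38-fold, so that it was not separated. It became so without HSL-null array 1, at -0.71, where only 2 array pairs had to meet the rule. The 2 probe sets differed from each other in their response by 0.55 ± 0.16. The suffix _f marks a probe set whose probes can also match related sequences. The dimmer probe set carries this suffix and is uncertain to that extent. It also lay near the filter, where 95% of duplicate gaps were under 0.67.

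**Figure D2:**
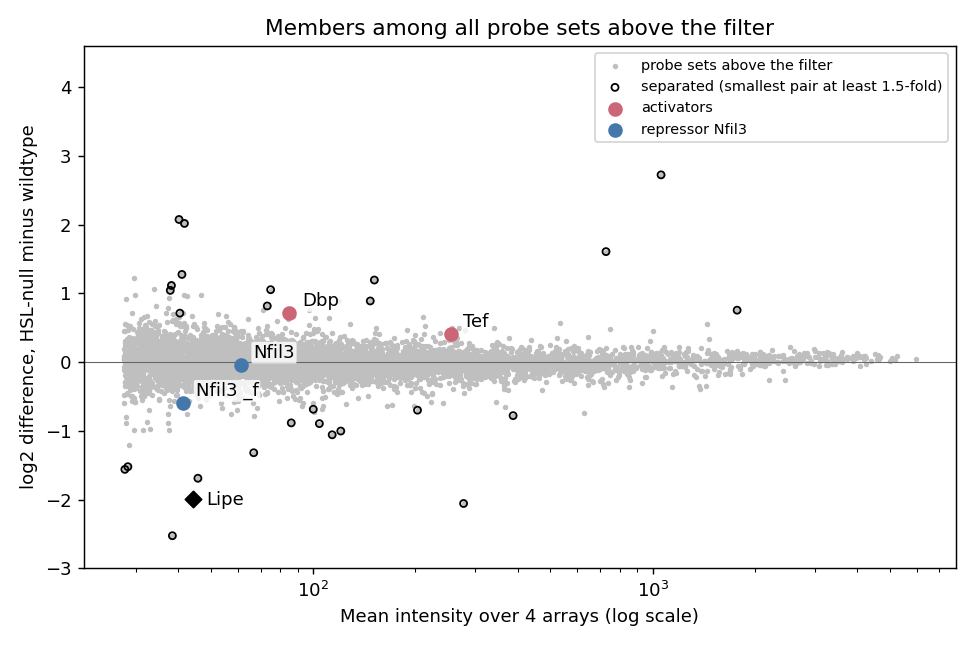
Log2 difference, HSL-null minus wildtype, against the mean intensity over 4 arrays (log axis) for the 6208 probe sets above the filter, with separated probe sets circled, activators in red, Nfil3 in blue and Lipe as a diamond. Dbp, at 0.71, is the separated member; Tef at 0.40 and the dimmer probe set of Nfil3 (labelled _f) at -0.60 lie towards the edges of the cloud, and the brighter probe set of Nfil3 at -0.041 lies in its middle.

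The balance of activators and repressor was then taken within each array, where the scaling of the array cancels. The mean log2 value of Dbp and Tef minus that of the brighter Nfil3 probe set was 0.97 and 0.91 in wildtype, against 1.57 and 1.51 in HSL-null. Only the change of this value between genotypes can be read, because the intensities of different probe sets are not on one scale. The change was 0.60 ± 0.044 (SE of duplicates), a 1.51-fold higher ratio in HSL-null, with 4 of 4 array pairs above 0 and the narrowest pair at 1.45-fold. It was therefore not separated, although it passed when wildtype array 1 or HSL-null array 2 was left out, each at 0.63. With an array left out, only 2 array pairs have to meet the rule, which is then easier to pass. Against the dimmer Nfil3 probe set the change was 1.15 ± 0.12, a 2.22-fold higher ratio, and was separated.

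Each activator was also set against each Nfil3 probe set. These 4 ratios reuse the same values, and the share of separated ratios over the array was not computed. The ratio of Dbp to Nfil3 was higher in HSL-null by 0.75 ± 0.11 with the brighter probe set and by 1.31 ± 0.056 with the dimmer probe set. It was separated with both, but with the brighter probe set its narrowest pair was only 1.51-fold. The ratio of Tef to Nfil3 was higher by 0.44 ± 0.030 with the brighter probe set, which was not separated, and by 1.00 ± 0.19 with the dimmer probe set, which was. Tef and the brighter Nfil3 probe set were both higher on wildtype array 2 than on wildtype array 1 and nearly equal on the HSL-null arrays. Their ratio had a smaller error (0.030) than either difference alone (0.17 and 0.14).

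**Figure D3:**
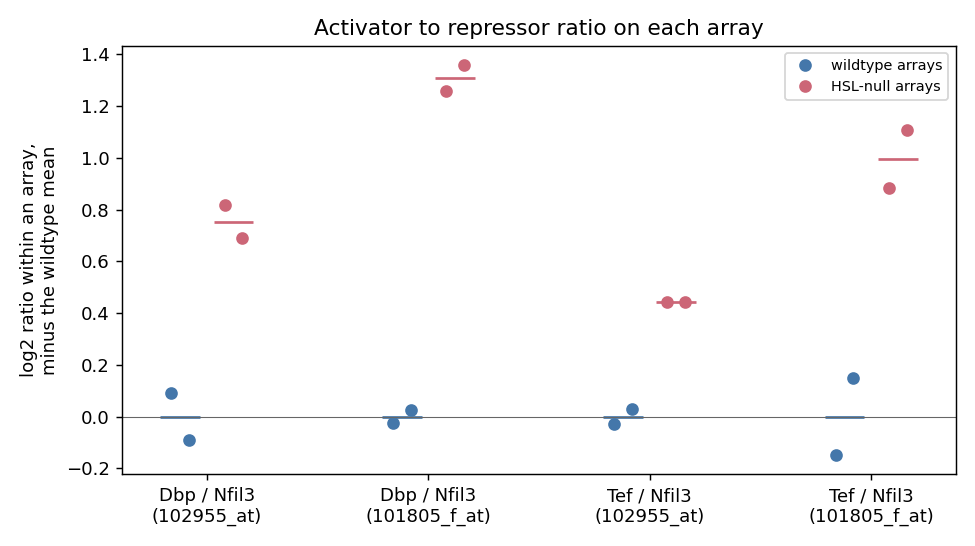
Log2 ratio of an activator to Nfil3 within each array, less the mean of the wildtype arrays (vertical axis), for Dbp and Tef against each Nfil3 probe set; points are arrays and lines are means of 2 arrays. The HSL-null arrays lie above the wildtype arrays in all 4 ratios, by 0.44 for Tef against the brighter probe set to 1.31 for Dbp against the dimmer probe set.

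The core clock genes upstream of the D-box factors were examined by the limb to which they belong, and none was separated. The negative limb inhibits CLOCK and BMAL1 or represses their genes, and 7 of its 10 listed genes passed the filter. Of these, 5 were non-overlapping higher, 0 were non-overlapping lower and 2 overlapped, with a median log2 difference of 0.16, against -0.0022 over all 6208 probe sets. With quantile normalization or cyclic loess, 4 were non-overlapping higher. Over all 6208 probe sets, 19.5% were non-overlapping higher and 21.1% lower, and these few genes were not tested against those shares. Per1, a light- and hormone-responsive period gene, measured 50.7 and 50.1 in wildtype, against 69.9 and 87.0 in HSL-null, and differed by 0.63 ± 0.16 (log2, SE of duplicates). The HSL-null arrays lay clear of the wildtype arrays but apart from each other. Nr1d1, which encodes REV-ERB alpha, the repressor of Arntl and Nfil3, measured 226.6 and 218.5 in wildtype and 316.9 and 312.4 in HSL-null (0.50 ± 0.028). Here both pairs of duplicates were close, and the gap lay between the genotypes. Per3 at 0.17 ± 0.099 and Nr1d2, which encodes REV-ERB beta, at 0.16 ± 0.043 were non-overlapping higher by small amounts. Per2, also named after its values were seen, was below the filter, with intensities of 4.5 to 8.1.

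The positive limb drives Dbp or, through ROR, Arntl and Nfil3, and 3 of its 6 listed genes passed the filter. Of these, 0 were non-overlapping higher, 2 were non-overlapping lower and 1 overlapped, with a median of -0.24. The shares over all 6208 probe sets were 19.5% higher and 21.1% lower, and so few genes were not tested against them. Arntl, which encodes BMAL1, measured 100.9 and 114.7 in wildtype, against 75.8 and 73.8 in HSL-null, and differed by -0.52 ± 0.094 (log2, SE of duplicates). Both HSL-null arrays lay below both wildtype arrays. Rora, an activator at the ROR element, measured 95.4 and 109.0 in wildtype and 83.6 and 88.7 in HSL-null (-0.24 ± 0.11). Its groups did not overlap, but the gap was no larger than that between its wildtype duplicates. Its second probe set was below the filter, with a log2 difference of 0.015 ± 0.41. Clock, the partner of BMAL1, overlapped between genotypes, at -0.14 ± 0.21, and is named after its values were seen.

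Genes known to carry a D-box or to respond to PAR factors were examined next. This list had 20 genes, of which 14 were on the array and 10 passed the filter, and 6 of those 10 are also in the limbs of the clock above. Of the 10, 0 were separated, 6 were non-overlapping higher, 1 lower (Rora) and 3 overlapped, with a median log2 difference of 0.14 and 8 above 0, where 49.5% of all 6208 probe sets lay above 0. The calls of Per1, Per3, Nr1d1, Nr1d2 and Rora are those already counted in the limbs. Nr1i3 and Pdxk were the non-overlapping higher genes not counted there, and the narrowest pair of Pdxk was 1.02-fold. With quantile normalization or cyclic loess 5 of the 10 were non-overlapping higher, and with median centring 7. As deposited, 19.5% of all 6208 probe sets were non-overlapping higher and 21.1% lower, and the 10 genes were not tested against these shares. Besides Per1, Nr1d1 and Rora, the rule for naming genes gave Nr1i3, which encodes the xenobiotic receptor CAR. It measured 41.7 and 31.0 in wildtype and 56.9 and 49.1 in HSL-null (0.56 ± 0.24), and its groups did not overlap. Its other probe set above the filter stood at 0.022 ± 0.48, so that the probe sets of Nr1i3 did not give the same difference. The probe set at 0.56 carries the suffix _r. Pdxk, the pyridoxal kinase and a PAR target in liver and brain, was at 0.12 ± 0.068, and Alas1, the rate-limiting enzyme of haem synthesis, overlapped at -0.061 ± 0.070. Cyp7a1, Alb and Ces3a, PAR-responsive or D-box genes of liver, were below the filter in this muscle. Pdxk, Alas1 and these 3 genes were chosen after their values were seen.

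**Figure D4:**
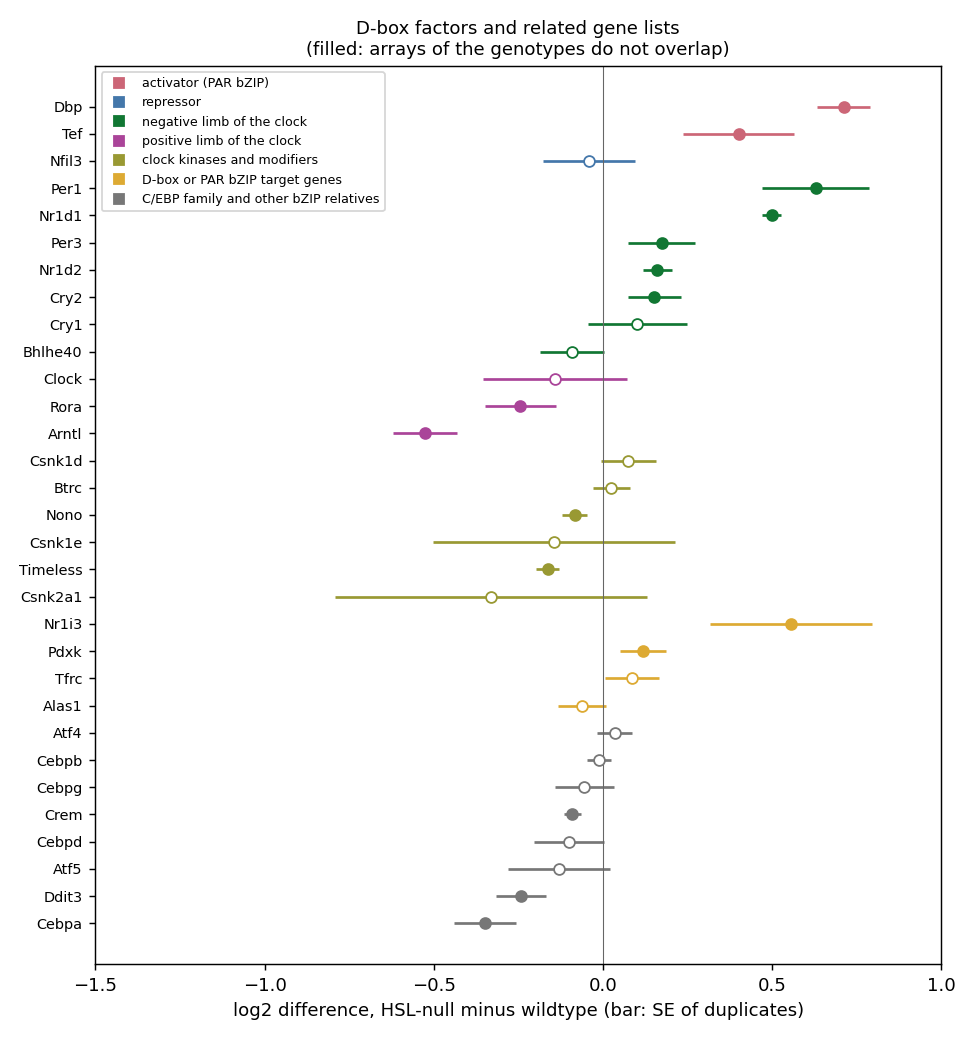
Log2 difference, HSL-null minus wildtype (horizontal axis; bars are the SE of duplicates), for the D-box factors and the genes of 5 lists above the filter, each gene by its brightest probe set and drawn once, under the first list that holds it. Filled points mark genes whose arrays do not overlap between genotypes; Dbp, Per1 and Nr1d1 lie at 0.71, 0.63 and 0.50, Nfil3 (brighter probe set) at -0.041 and Arntl at -0.52.

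The genes whose pattern over the 4 arrays was most like that of Dbp were found by the Euclidean distance between log2 values, each taken as a deviation from the gene's own mean. The deviations of Dbp itself had a length of 0.72, which sets the scale. The 5 nearest named genes outside the family were Pvalb (distance 0.080), Comtd1 (0.11), Gas5 (0.13), Egr1 (0.14) and Mapkapk2 (0.17). The probe sets of Pvalb and Mapkapk2 carry the suffix _i, that of Comtd1 _r and that of Gas5 _g, and only that of Egr1 has none. The effect of these suffixes was not tested. Pvalb, the calcium buffer of fast fibres, measured 1288.1 and 1352.2 in wildtype and 2254.7 and 2200.1 in HSL-null. A second probe set of Pvalb, with the suffix _f, had a larger log2 difference of 1.19 and was also separated. The likeness to Dbp therefore holds for 1 probe set of Pvalb. Egr1, an immediate early transcription factor, measured 52.1 and 54.0 in wildtype and 93.3 and 93.5 in HSL-null. Pvalb and Egr1 were separated, as Dbp was, and Comtd1, Gas5 and Mapkapk2 were not. No clock gene was among the 5. The distance mainly picks genes whose difference lies near the 0.71 of Dbp, so that neither observation is separate evidence. With 4 arrays from 2 pools, the distance ranks likeness on these arrays only.

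The differences of the members were recomputed under 11 alternatives each. Dbp lay between 0.63 and 0.78 and was separated under 10 of the 11. With an array left out, or with only same-numbered arrays compared, fewer of the same array pairs are used. Dbp could not lose the call in those settings. A floor at the 10th percentile could not change the 0.71 of Dbp, since its intensities all lay above the floor in use. The trimmed-mean scaling could hardly change it, since the arrays already had trimmed means of 100.078 to 100.082. Among the settings that could change the call, median centring, quantile normalization and cyclic loess kept it, and the pseudocount ended it. Tef lay between 0.24 and 0.57 and was separated under 0, and the dimmer probe set of Nfil3 lay between -0.71 and -0.48 and was separated under 1. For the brighter probe set of Nfil3 the range was -0.18 to 0.094, on both sides of 0.

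**Figure D5:**
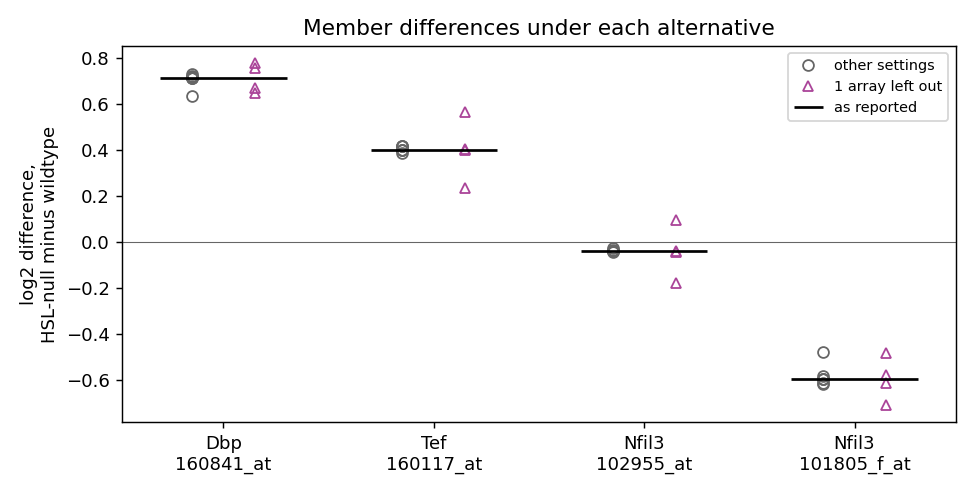
Log2 difference, HSL-null minus wildtype (vertical axis), of each member probe set as reported (black line), with 1 array left out (triangles) and under the other settings (circles). Dbp and Tef stay above 0 and the dimmer probe set of Nfil3 below 0 in every setting drawn, whereas the brighter probe set of Nfil3 falls on both sides of 0.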

How the data were processed

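The deposited table holds 1 linear intensity per probe set and array, already scaled by the authors: with 2% of values trimmed from each end, the array means lay between 100.078 and 100.082, as tested on the values, within the tolerance of 5% for using them unscaled. Neither the software nor its background step is named in the labels. No detection calls were used, and 66 control probe sets were dropped. Names came from the platform annotation (10855 probe sets with 1 symbol), and 10839 of these had a gene ID in RefSeq (GRCm38.p6), used for names and promoter sequences. Intensities were floored and log2-transformed; the SE of a log2 difference comes from the duplicates. A gene in a list was represented by its brightest probe set. Named genes were every member probe set, Lipe, up to 4 non-overlapping genes per list (otherwise the 2 brightest), and the 5 genes nearest to Dbp in pattern; others are said to have been named after their values were seen. The members and lists were chosen with earlier results of these data known. Alternatives covered scaling (limma 3.58.1 in R 4.3.3, with values of 0 set to 0.1, for quantile normalization and cyclic loess), floor, filter, size threshold, leaving out arrays, a block on replicate number and the choice of Nfil3 probe set. Python 3.11.15, numpy 2.4.6 and pandas 2.3.3 served for the rest. Precision is limited by the number of arrays, and with 1 pool per genotype the spread between animals is not measured.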

Additional observations from a re-analysis of the deposited data

How the results depend on the processing

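With a pseudocount of 10 in place of the floor, the log2 difference was 0.63 for Dbp, no longer separated, and -0.48 for the dimmer probe set of Nfil3, and the change of activators minus Nfil3 was 0.55. That change was 0.87, and separated, with the mean of both Nfil3 probe sets. With 1 array left out, it ranged from 0.57 to 0.63, Dbp from 0.65 to 0.78, Tef from 0.24 to 0.57, and Nfil3 from -0.18 to 0.094 on its brighter probe set and from -0.71 to -0.48 on its dimmer one. Separated probe sets over the whole array numbered 14 higher and 14 lower in HSL-null, 121 and 55 with no filter, 5 and 5 with the filter at the 75th percentile, 74 and 58 with the lower size threshold and 6 and 8 at 2-fold. Leaving out 1 array, which leaves 2 array pairs to meet the rule, gave 31 to 65 higher and 34 to 54 lower. With the replicate number as a block, the change of activators minus Nfil3 stayed at 0.60 by construction and was separated, since 2 same-numbered pairs are compared in place of 4. The numbers name duplicates of different pools, and the deviations of same-numbered arrays correlated at -0.086 across 6208 probe sets. The other scalings (median, trimmed mean, quantile and cyclic loess) left each member on its side of 0 and of the threshold.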

Other observations

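Other leucine zipper factors were listed beside Dbp and Tef. Of 10 listed C/EBP, ATF and CREB relatives, 8 passed the filter, of which 0 were separated, 0 were non-overlapping higher, 3 were non-overlapping lower and 5 overlapped, with a median log2 difference of -0.095. Over all 6208 probe sets 21.1% were non-overlapping lower, and so few genes cannot be told from that share. Cebpa, an adipocyte and liver factor, measured 164.7 and 183.6 in wildtype and 132.0 and 141.2 in HSL-null (-0.35 ± 0.092, SE of duplicates), and it is also one of the white adipocyte markers whose sum was lower in that pool. Ddit3, the stress-induced factor CHOP, stood at -0.24 ± 0.075 and Crem, a cAMP-responsive factor, at -0.090 ± 0.026.

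Among 10 listed kinases and modifiers of clock proteins, 6 passed the filter, of which 0 were separated, 2 were non-overlapping lower and 4 overlapped. Here too the share non-overlapping lower over all 6208 probe sets, 21.1%, cannot be told from that of so few genes. Timeless measured 71.6 on both wildtype arrays and 65.5 and 62.5 in HSL-null (-0.16 ± 0.034), and Nono, an RNA- and PER-binding protein, stood at -0.083 ± 0.038. The second probe set of Nono stood at -0.015 ± 0.077 and overlapped. Csnk2a1, a casein kinase subunit named after its values were seen, had the lowest value of the 6 at -0.33 ± 0.46, with an error larger than the difference. Its other 3 probe sets above the filter stood at -0.028, 0.14 and -0.11, and the one at 0.14 was non-overlapping higher.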
